A study of Mus musculus with 4 samples.

Results

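Pvalb, Vip, Kit, Calb2, Htr3a and Cck are genes by which classes of GABA-releasing interneurons are told apart, and they were chosen by their symbols. All 6 were found among the 19465 genes of a spatial expression table of the mouse brain. The table came from coronal sections, trimmed to show the striatum, of 4 mice: 2 wild-type mice and 2 heterozygous for Celsr3, an adhesion receptor of the cadherin family. The tissue was fixed in formalin and embedded in paraffin, and Visium CytAssist read gene probes on a grid of barcoded spots, each a small region that can hold several cells of different types. No treatment was given, and age, sex, strain and the Celsr3 allele are not given in the sources used here. The question of the study concerns lower Celsr3 dosage and the striatum.

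The spots fell into 4 barcode sets, named 1 to 4 here by the ending of the spot name. That ending matched no sample label, so 0 of the 4 sets had a known animal. No comparison of genotypes was made for any of the 6 genes. Values stand for each set, levels are counts per 1000000 counts (CPM), and the 95% intervals cover counting error only: a difference beyond them separates libraries or areas, not genotypes. The sets held 2808 to 3445 spots and 90752475 to 174761560 counts, set 4 being the shallowest. The gene counts of every pair of sets differed, with a chi-square of 86.7 to 485 per degree of freedom, so none was a library deposited again.

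Interneurons use GABA and connect within their own region. In the cortex, parvalbumin cells are fast-spiking and inhibit the cell bodies of pyramidal neurons, whereas vasoactive intestinal peptide (VIP) cells lie mostly in upper layers and inhibit other interneurons. Calretinin, cholecystokinin and the ionotropic serotonin receptor mark overlapping sets of cells that arise in the caudal ganglionic eminence, and Kit marks neurogliaform cells among others. The striatum consists mainly of projection neurons that also use GABA, with few interneurons. None of the 6 genes is confined to interneurons in the brain: cortical pyramidal cells make Cck, and thalamic neurons can make Calb2. In a spot, fewer cells of a type and less RNA per cell cannot be told apart.

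Spots were grouped into 20 areas by clusters made without these 6 genes and their related lists. The striatum held 3078 spots, with Scn4b and Pde10a among its leading genes, and spots with cortical markers numbered 3445. Not all areas were in every section: thalamus spots were found in sets 1 and 4 (156 and 310 spots), and so were spots led by Six3 and Lancl3 (61 and 86). Spots led by Ctxn3 and Lbhd2 came from set 3 (127 spots) and set 2 (25 spots), and the layer 5 area came almost wholly from set 4 (237 of 251 spots). The layer 2/3 area was almost wholly cluster 6 in sets 1 to 3 and cluster 21 (213 of its 214 spots) in set 4. Levels are given for areas with at least 30 spots in a set. The areas sampled thus differed between sets, and a level over a whole section covers those present in it.

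Vip, Cck and Pvalb had the highest ratios of cortical to striatal level in sets 1 to 3 (in set 4 Htr3a, at 6.03, stood above Pvalb, at 5.19), and the 250 bases before their start sites are shown so that the promoter letters can be set beside these levels. They are from RefSeq (GRCm38.p6), which had an entry for 4 of the 6 genes (Pvalb, Vip, Kit and Cck). The Vip window lies at chr10:5638968-5639217 on the plus strand, the Cck window at chr9:121495695-121495944 on the minus strand, and the window of the first listed Pvalb start site at chr15:78206401-78206650 on the minus strand. Capitals mark TGACG on either strand (CGTCA on the other), the core of a cAMP-response element, and the TATA box letters TATAAA or TATTTAA.
Vip: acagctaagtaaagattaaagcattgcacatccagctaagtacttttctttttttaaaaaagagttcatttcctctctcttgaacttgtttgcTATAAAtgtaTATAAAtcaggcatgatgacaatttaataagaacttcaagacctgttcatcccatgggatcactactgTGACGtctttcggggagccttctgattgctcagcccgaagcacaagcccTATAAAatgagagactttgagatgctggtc
Cck: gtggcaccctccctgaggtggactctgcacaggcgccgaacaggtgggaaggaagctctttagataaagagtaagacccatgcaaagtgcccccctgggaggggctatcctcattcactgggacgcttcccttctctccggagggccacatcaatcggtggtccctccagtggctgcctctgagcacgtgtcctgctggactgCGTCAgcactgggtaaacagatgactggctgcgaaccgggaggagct
Pvalb: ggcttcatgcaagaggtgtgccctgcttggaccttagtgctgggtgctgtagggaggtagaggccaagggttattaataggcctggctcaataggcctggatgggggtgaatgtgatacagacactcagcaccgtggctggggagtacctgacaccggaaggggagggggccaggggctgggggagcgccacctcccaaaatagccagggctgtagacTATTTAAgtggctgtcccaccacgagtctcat
The TGACG letters began 79 bases before the Vip start and 47 before the Cck start, and the Pvalb and Kit windows held none. TATAAA occurred 3 times in the Vip window, 157, 147 and 30 bases before the start, and TATTTAA once in that of Pvalb, 32 bases before it. Over 32851 windows of the same length, 17.8% held TGACG, 12.4% held TATAAA and 4.18% held TATTTAA, each counted on either strand. The motifs did not overlap, and a match is a run of letters, not a measured site.

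Whether the genes were higher in cortex or striatum was asked in each set, because both areas come from the same section. Pvalb, Vip, Calb2, Htr3a and Cck were higher in cortical spots in 4 of 4 sets, and Kit was lower in 4 of 4. The distance ran from over 20-fold for Vip and Cck to below 2-fold for Kit. By a difference of at least 1 in log2(CPM + 1) in all 4 sets, 533 of 9904 genes tested, 5.38%, were higher in cortical spots, and Pvalb, Vip and Cck were among them. Calb2 reached that size in 3 of 4 sets, Kit in none, and Htr3a, with a mean below 10 CPM, was not tested. In the other direction 4% of genes tested were called, and 0 of the 5 members tested. Vip and Calb2, below 10 CPM in striatum, reached the mean of 10 CPM only through their cortical level. They could therefore not have been called lower in cortical spots, and the call of Vip as higher followed from the filter.

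**Figure D1:**
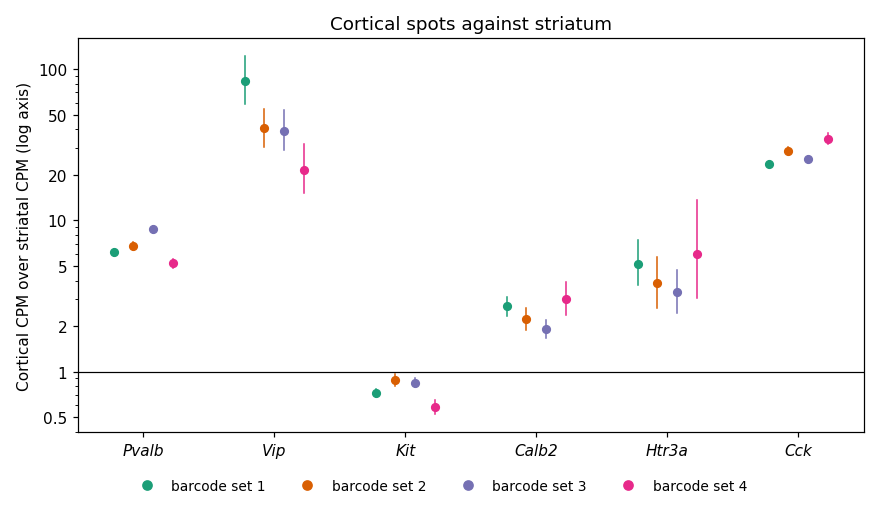
Ratio of the level in all cortical spots to the level in striatum (log axis) for each gene, with 1 point per barcode set and exact conditional binomial 95% intervals, which cover counting error only. All 4 points lie above 1 for Pvalb, Vip, Calb2, Htr3a and Cck, and all 4 lie below 1 for Kit, from 0.584 to 0.880.

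Pvalb encodes parvalbumin, a calcium-binding protein that buffers calcium in fast-spiking cells. In striatum it measured 48.0, 46.7, 38.8 and 69.2 CPM, in the order of sets 1 to 4 that all such values follow. In all cortical spots it measured 294, 316, 339 and 359 CPM. Every cortical value lay above every striatal one. The ratio of cortical to striatal level was 6.13 (interval 5.84 to 6.44), 6.76 (6.40 to 7.15), 8.75 (8.30 to 9.23) and 5.19 (4.85 to 5.56).

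Within the cortex Pvalb peaked in the middle of the depth. It measured 193, 216, 214 and 256 CPM in layer 2/3, and 485, 536, 434 and 433 CPM in layer 4. In the next area, led by Fezf2 (a transcription factor of layer 5 neurons) and Adra1d, it measured 408, 409.9 and 490.0 CPM in sets 1 to 3, and the layer 5 area gave 529 CPM in set 4. In deep spots led by Trbc2 and Myl4 it measured 277, 233, 289.6 and 314 CPM, and in layer 6b 44.0, 48.2, 48.0 and 74.1 CPM. Layer 2/3 was thus at 0.398 to 0.592 of the layer 4 level and at 3.45 to 4.48 times that of layer 6b. Each of these ratios had an interval that left out 1 in 4 of 4 sets, whereas the ranges over sets of layer 4 and of the Fezf2 and layer 5 areas overlapped.

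In sets 1 and 4 the highest Pvalb level was outside the cortex, whereas it was in layer 4 in set 2 and in the area led by Fezf2 in set 3. Spots led by Six3 and Lancl3, whose leading genes also include Esrrg, Ramp3 and Ret, held 3804 CPM in set 1 (interval 3747 to 3862) and 6102 CPM in set 4 (6006 to 6200). These 61 and 86 spots carried 36.8% and 43.1% of all Pvalb counts of their sets. Every such spot had at least 1 Pvalb count after thinning to 10000 counts, and the highest spots held 587 and 460 counts. Against striatum of the same set the level was 79.3 and 88.2 times as high, and against thalamus 39.3 and 36.2 times. The other 5 genes did not share this peak: Vip measured 0.684 and 0.802 CPM there, Kit 17.1 and 7.22, Cck 61.6 and 49.3, Calb2 78.9 and 42.1, and Htr3a had 1 count in set 1 and 0 in set 4. Calb2 still stood at 11.9 and 7.30 times the striatal level of those sets.

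Areas below the cortex split in Pvalb by cluster. Basal forebrain and pallidum spots came in cluster 3, led by Ngfr, and cluster 7, led by Lhx8. Pvalb measured 90.9, 214, 83.0 and 108 CPM in cluster 3, and 795, 267, 409 and 1247 CPM in cluster 7. Cluster 7 was higher in each set, and set 2, with 37 spots of cluster 7, had the smallest gap. Thalamus split likewise, with 14.9 and 31.7 CPM in cluster 18 (led by Gbx2) and 258 and 358 CPM in cluster 24 (led by Cbln1) in sets 1 and 4. White matter ranged widely, at 147, 13.4, 20.8 and 457 CPM, and was high in the sets that also held spots led by Six3.

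Pvalb over the whole section was 259, 165, 166 and 389 CPM. Set 4 was 2.36 times set 2, and of 10144 genes tested 11.1% were at least 2-fold apart between their highest and lowest set. Pvalb and Calb2 were the 2 of 5 members tested that were. Without the spots led by Six3 and Lancl3, Pvalb was 168, 165, 166 and 227 CPM, a highest over lowest ratio of 1.38. In cortical spots alone the ratio was 1.22, and in striatum 1.79, with set 4 highest in both. In cortical spots 10.1% of genes and in striatum 9.7% of genes were at least 2-fold apart, and none of the members tested was.

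**Figure D2:**
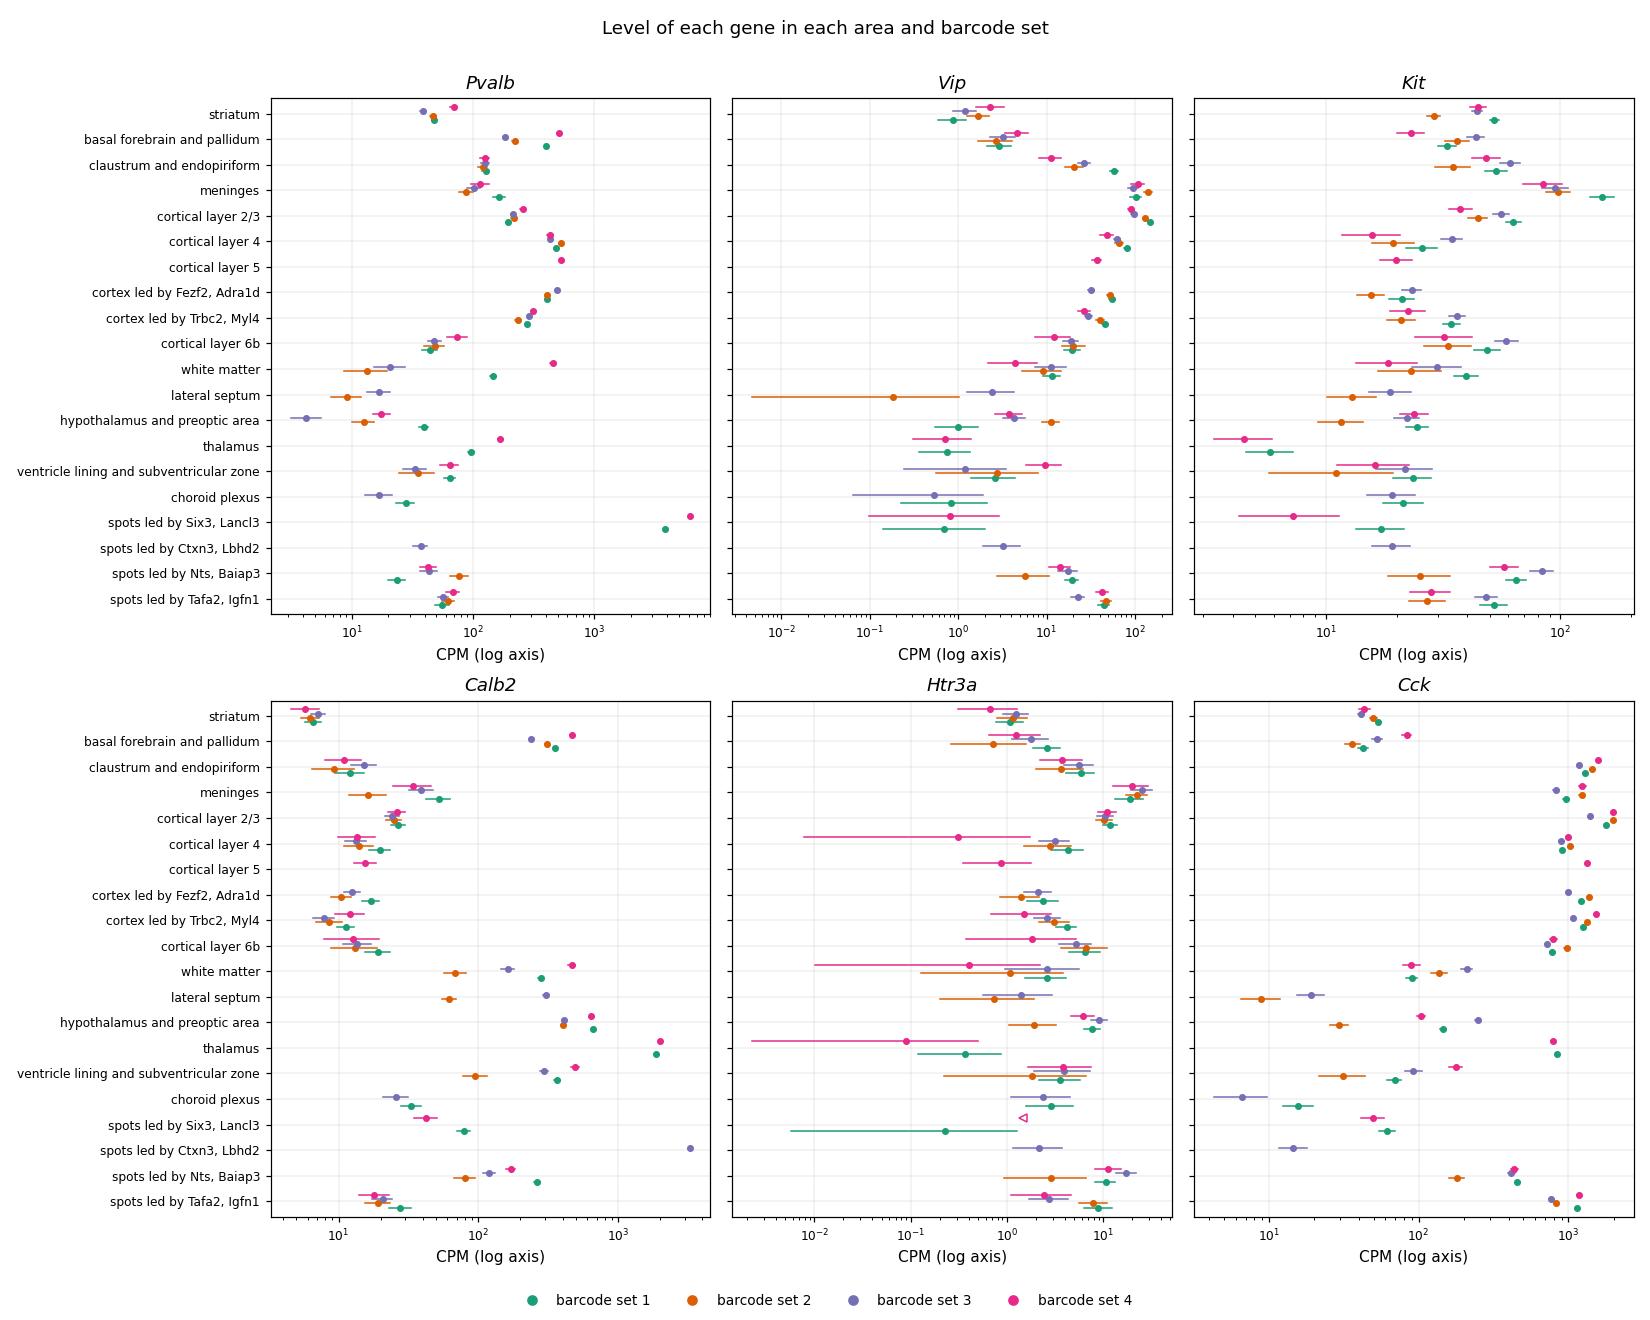
Level of each gene in CPM (log axis, a different range in each panel) in each area with at least 30 spots in a barcode set; points are sets, lines are exact Poisson 95% intervals, and the open triangle marks 0 counts at the upper end of its interval. Pvalb is highest in spots led by Six3 and Lancl3 (3804 and 6102 CPM), Calb2 in spots led by Ctxn3 and Lbhd2 (3236 CPM) and thalamus, and Vip and Cck in layer 2/3 and spots close to it.

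Calb2 encodes calretinin, a calcium-binding protein of the same superfamily as parvalbumin. Striatum held the least of it among the 20 areas, at 6.61, 6.30, 7.13 and 5.76 CPM. Cortical spots gave 17.8, 14.02, 13.6 and 17.5 CPM. The 4 cortical values lay above the 4 striatal ones, by 2.70, 2.23, 1.91 and 3.03 times. The size of this ratio moved with the grouping of spots: on the log2 scale it ran from 0.71 (set 3, clustering without set 2) to 3.44 (set 4, areas drawn from a marker score), against 0.93 to 1.60 as given. Layer 2/3 was the highest cortical area and nearly level over the sets, at 26.6, 24.8, 24.2 and 26.0 CPM. This was 1.35 to 1.91 times layer 4, with intervals that left out 1 in 4 of 4 sets.

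Most Calb2 was below the cortex. Thalamus held 1869 CPM in set 1 and 1992 CPM in set 4, with 53.0% and 61.8% of all Calb2 counts of those sets. In set 3, spots led by Ctxn3 and Lbhd2, whose leading genes include Ebf3 and Eomes, held 3236 CPM (interval 3190 to 3282) and 60.6% of the Calb2 counts. Hypothalamus and preoptic spots held 661, 406, 410 and 643 CPM, 57.4 to 112 times the striatum of the same set. Basal forebrain and pallidum spots held 352, 310, 239 and 467 CPM.

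Calb2 and Pvalb were high in different clusters of these areas. Within the basal forebrain area Calb2 measured 589, 336, 332 and 689 CPM in cluster 3 and 44.1, 119, 32.4 and 62.1 CPM in cluster 7. That is the reverse of Pvalb in 4 of 4 sets. In thalamus it measured 2749 and 3264 CPM in cluster 18 against 137 and 228 CPM in cluster 24, again the reverse of Pvalb. These are descriptions of clusters formed from other genes, and no cell type was assigned to them. Within the striatum, cluster 16, led by Pdyn, held 13.4, 19.7, 16.6 and 21.9 CPM of Calb2 and cluster 1, with 2031 spots the largest cluster, 4.78, 2.68, 4.78 and 3.30 CPM.

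**Figure D3:**
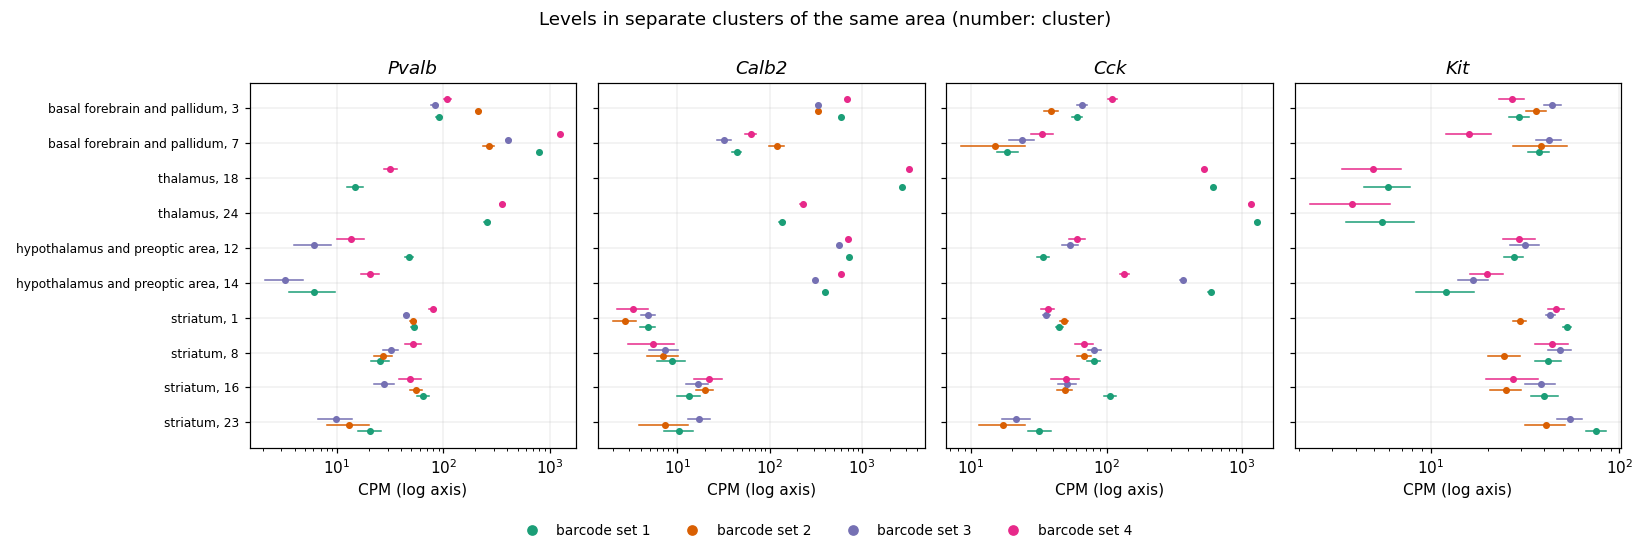
Levels in CPM (log axis) of Pvalb, Calb2, Cck and Kit in separate clusters of the basal forebrain, thalamus, hypothalamus and striatum areas; points are barcode sets with at least 30 spots in the cluster, and lines are exact Poisson 95% intervals. Pvalb is higher in clusters 7 and 24 where Calb2 is lower, and Calb2 is higher in clusters 3 and 18.

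Over the whole section Calb2 was 272, 68.8, 193 and 396 CPM, and set 4 was 5.76 times set 2. Without thalamus spots and the spots led by Six3 or Ctxn3 the values were 140.0, 65.9, 79.0 and 177 CPM, a highest over lowest ratio of 2.68. In cortical spots the highest over lowest ratio was 1.31, in striatum 1.24. Over the areas with at least 30 spots in every set it was 2.61. The spread of Calb2 over the sets was thus widest outside cortex and striatum, and part of it remained when the unevenly sampled areas were left out. The areas kept can still hold different clusters in different sets.

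**Figure D4:**
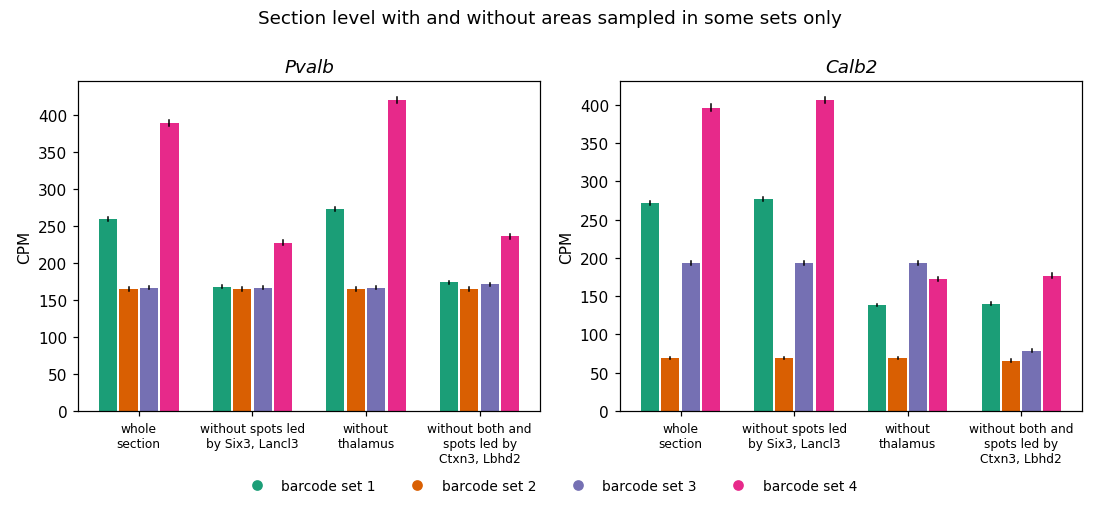
Whole-section level in CPM of Pvalb and Calb2 in each barcode set, with all spots and after leaving out areas found in some sets only; bars start at 0 and black lines are exact Poisson 95% intervals. Leaving out spots led by Six3 and Lancl3 brings Pvalb in set 1 from 259 to 168 CPM, beside sets 2 and 3 at 165 and 166, and leaving out thalamus brings Calb2 in set 4 from 396 to 173 CPM.

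Vip encodes the precursor of vasoactive intestinal peptide. It had the largest distance between cortex and striatum of the 6 genes in sets 1, 2 and 3, and Cck had the largest in set 4. Cortical spots gave 72.7, 68.7, 46.9 and 50.2 CPM, and striatum 0.870, 1.69, 1.198 and 2.32 CPM. The ratio was 83.6 (interval 59.1 to 122), 40.6 (30.7 to 54.8), 39.1 (29.2 to 53.8) and 21.6 (15.2 to 31.9). The striatal values rest on 32, 50, 45 and 31 counts. In choroid plexus, an epithelium of the ventricles, Vip was 0.831 and 0.531 CPM in sets 1 and 3, from 4 and 2 counts. The striatal level lay within the counting interval of this epithelial area in both sets.

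Vip was lower with each step of cortical depth. Layer 2/3 held 148, 131, 96.8 and 89.0 CPM, layer 4 held 81.4, 66.3, 62.3 and 47.6 CPM, deep spots led by Trbc2 and Myl4 held 45.5, 40.5, 29.8 and 26.3 CPM, and layer 6b held 19.5, 20.1, 18.8 and 12.1 CPM. The order was the same in every set, and the step from layer 2/3 to layer 4 was 1.55 to 1.98 times. Spots at the brain surface, named meninges by markers such as Ptgds and Col1a2, held 102, 141, 96.1 and 107 CPM. Their level was below layer 2/3 in set 1 and within counting error of it in sets 2, 3 and 4. Layer 2/3 carried 35.5%, 35.5%, 29.1% and 38.6% of all Vip counts.

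After each spot was thinned to 10000 counts, 69.0%, 62.0%, 53.8% and 45.7% of layer 2/3 spots held Vip, and 98.1%, 94.7%, 92.5% and 76.8% did without thinning. In striatum 1.21%, 1.17%, 1.30% and 2.50% of thinned spots held it, and 3.04% to 4.24% did without thinning. In choroid plexus the thinned share was 0% and 1.89% in sets 1 and 3, from 48 and 53 spots. Median depths were 39084 to 77646 counts per spot in layer 2/3, 23526 to 47075 in striatum and 69415 and 83723 in choroid plexus. Within the striatum the Vip level of cluster 8, in set 2, was 6.08 CPM (interval 3.94 to 8.98), from 25 counts, against 0.578 (0.289 to 1.03) in cluster 1. The other sets did not share this gap. In sets 1, 3 and 4 cluster 8 held 1.24, 1.36 and 1.67 CPM and cluster 1 held 0.739, 1.08 and 2.51 CPM, with overlapping intervals.

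Cck encodes the precursor of cholecystokinin, which pyramidal cells make as well as a class of basket cells. It measured 1267, 1441, 1046 and 1499 CPM in cortical spots and 54.0, 49.8, 41.4 and 43.4 CPM in striatum. Cortical spots were 23.5 (interval 22.5 to 24.6), 28.9 (27.5 to 30.5), 25.3 (24.04 to 26.6) and 34.5 (31.8 to 37.5) times as high. Layer 2/3 was the highest area in 4 of 4 sets, at 1770.2, 1969, 1402 and 1969 CPM. With areas drawn from a marker score, claustrum and endopiriform spots were highest in sets 2 and 3. Layer 4 was lower, at 902, 1032, 895 and 991.5 CPM, and the deep spots led by Trbc2 and Myl4 were higher again, at 1256, 1325, 1068 and 1534 CPM. Cck thus dipped in layer 4, where Pvalb was near its cortical peak.

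Outside the cortex Cck was high in claustrum and endopiriform spots, at 1282, 1443, 1173 and 1580.5 CPM, and in thalamus, at 837 and 787 CPM. Within thalamus cluster 24 held 1279 and 1154 CPM and cluster 18 held 612 and 522 CPM, the same order as Pvalb. Lateral septum spots were among the lowest, at 8.89 CPM in set 2 and 19.0 CPM in set 3. Hypothalamus and preoptic spots varied over sets from 29.6 to 248 CPM. Over the whole section Cck was 592, 698, 539.7 and 743 CPM, 1.38-fold between the highest and lowest set.

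**Figure D5:**
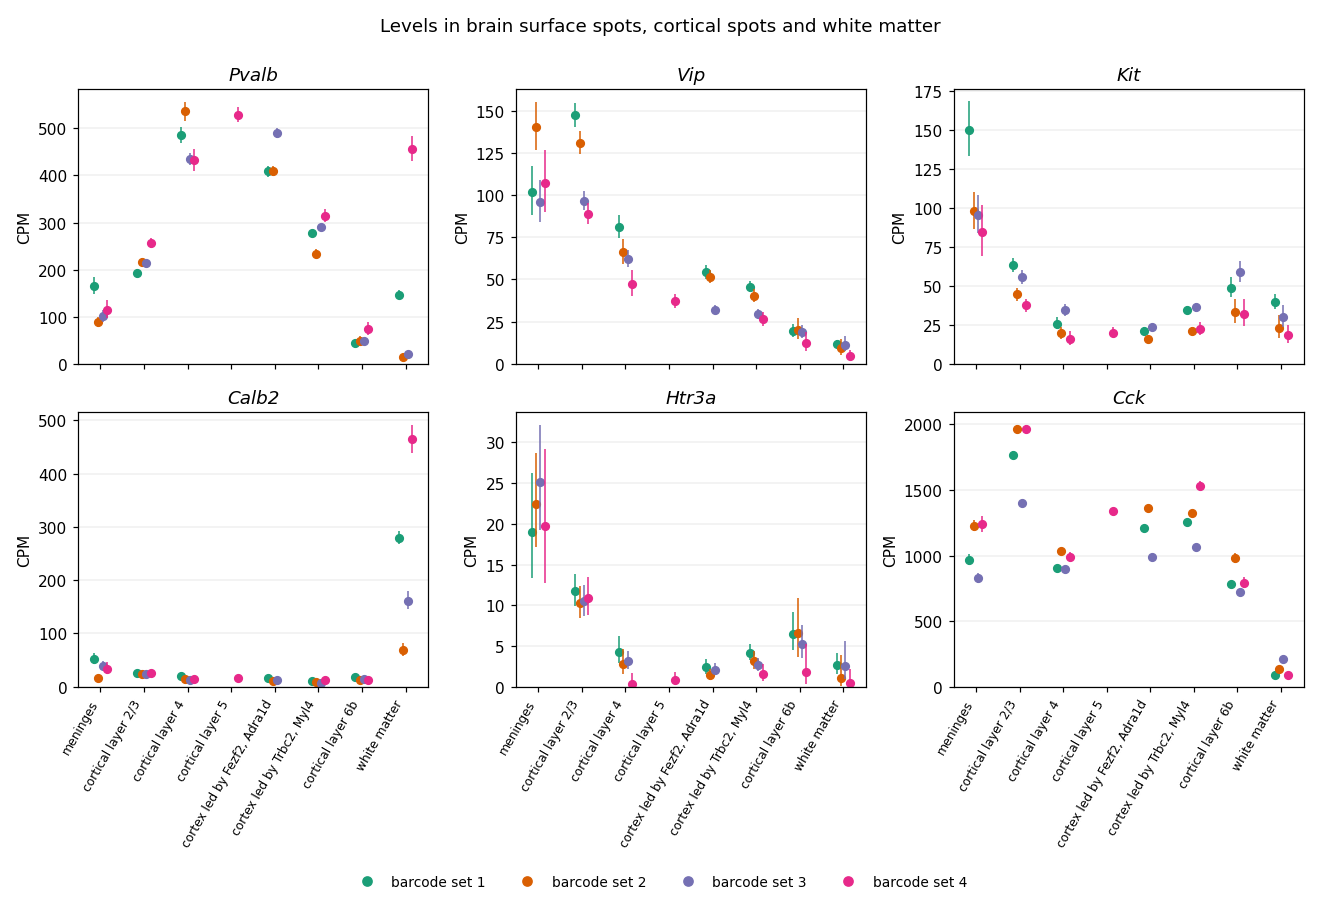
Level in CPM of each gene in brain surface spots (meninges), cortical areas in their rough order of depth, and white matter; points are barcode sets, vertical lines are exact Poisson 95% intervals, and each panel starts at 0. Pvalb is highest in layer 4, the layer 5 area and the area led by Fezf2, Vip falls from layer 2/3 to layer 6b, and Kit and Htr3a are highest at the surface.

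Kit encodes the receptor tyrosine kinase for stem cell factor. It was the only one of the 6 genes with more in striatum than in cortical spots. Striatum held 52.2, 28.8, 44.3 and 44.5 CPM, and cortical spots held 37.8, 25.3, 37.4 and 26.0 CPM. The 2 ranges over sets overlapped, but within each set striatum was higher. The cortical level was 0.723 (interval 0.679 to 0.770), 0.880 (0.803 to 0.964), 0.845 (0.793 to 0.900) and 0.584 (0.523 to 0.653) of the striatal one. Coarser clustering turned set 2 to a log2 ratio of 0.056, and clustering without centring turned set 3 to 0.037. Under TMM and RLE scaling set 2 kept its sign, at −0.06 and −0.13, and Kit was lower beyond counting error in 3 of 4 sets.

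Kit was highest at the brain surface in 4 of 4 sets, at 150.2, 97.8, 95.3 and 84.4 CPM. At a clustering resolution of 0.4 layer 2/3 was highest in sets 1 and 2, and spots led by Otof and Nts in sets 3 and 4, and at 1.2 spots led by Camk2a and Id3 were highest in set 4. The surface level as given was 1.71 to 2.38 times that of layer 2/3, which held 63.1, 44.5, 55.6 and 37.4 CPM. Kit was lower in layer 4, at 25.6, 19.4, 34.3 and 15.8 CPM, and was higher again in layer 6b, at 48.8, 33.3, 58.9 and 31.9 CPM. Mast cells also make Kit: a list of 5 mast cell genes summed to 0.514 to 2.37 CPM at the surface and 0.406 to 1.91 CPM over the section, with no gene at 0 in all sets. A list of 4 melanocyte genes summed to 2.06 to 6.31 CPM at the surface and 3.33 to 4.52 CPM over the section. The part of such cells in the Kit level was not tested.

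Within the striatum Kit and Pvalb differed between clusters. Cluster 23, led by histone genes and Crym, held 75.3, 40.7 and 54.7 CPM of Kit in sets 1 to 3, and cluster 1 held 52.7, 29.6 and 43.1 CPM. For Pvalb the same clusters held 20.3, 12.9 and 9.69 CPM against 52.6, 51.6 and 44.7 CPM. Kit was thus higher and Pvalb lower in cluster 23 in 3 of 3 sets. The Kit intervals of set 2 overlapped, however (31.4 to 51.7 and 27.2 to 32.1). Cluster 23 held 183 of the 3078 striatal spots, and its contrast did not hold for the striatum as a whole. Over thinned striatal spots Kit and Pvalb went weakly together, with a Pearson r of 0.184, 0.289, 0.158 and 0.183 in sets 1 to 4. Thalamus had the lowest Kit level of the areas, at 5.79 and 4.48 CPM. After thinning, 36.8%, 21.1%, 32.6% and 30.1% of striatal spots held Kit and 33.4%, 27.4%, 28.5% and 36.0% held Pvalb, against 16.7% and 22.6% (Kit) and 22.9% and 20.8% (Pvalb) of choroid plexus spots in sets 1 and 3. Without thinning, 48.1% to 77.0% of striatal spots held Kit and 54.8% to 72.1% held Pvalb.

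Htr3a encodes subunit A of the ionotropic serotonin receptor. It was the least counted of the 6 genes, at 4.18, 3.36, 4.09 and 3.20 CPM over the section. It was highest at the brain surface in 4 of 4 sets, at 19.0, 22.4, 25.1 and 19.7 CPM, from 25 to 63 counts a set. Layer 2/3 held 11.7, 10.2, 10.5 and 11.0 CPM, and the surface was 1.63 to 2.40 times as high. Which area was highest changed with the grouping of spots. At a clustering resolution of 0.4 it was layer 2/3 in sets 1, 2 and 4 and spots led by Otof and Nts in set 3. In set 4 it was layer 2/3 with areas drawn from a marker score, and spots led by Camk2a and Id3 at a resolution of 1.2. Cortical spots as a whole held 5.63, 4.41, 4.20 and 4.06 CPM and striatum 1.09, 1.15, 1.25 and 0.674 CPM, a ratio of 5.18 (interval 3.71 to 7.39), 3.83 (2.65 to 5.70), 3.36 (2.45 to 4.68) and 6.03 (3.06 to 13.5).

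The striatal Htr3a level rests on 40, 34, 47 and 9 counts. Choroid plexus held 2.91 and 2.39 CPM in sets 1 and 3, above the striatal level of those sets, and its Calb2 level of 33.0 and 25.7 CPM was above the striatal one as well. In sets 1 and 3, the sets with at least 30 such spots, striatal Htr3a and Calb2 were thus below the level of an epithelial area. Below the cortex, hypothalamus cluster 14, led by Baiap3 and Cartpt, held 29.1, 11.1 and 8.24 CPM of Htr3a in sets 1, 3 and 4. Spots led by Nts and Baiap3 held 10.6, 2.88, 17.4 and 11.3 CPM, with set 2 low.

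The genes that bind or act with the members were measured in the same way. Cckbr, the main cholecystokinin receptor of the brain, was 11.0 to 14.6 times as high in cortical spots as in striatum, where it held 5.64 to 9.38 CPM. Vipr1, a receptor of vasoactive intestinal peptide, was 1.55 to 1.84 times as high in cortical spots. Kitl, the ligand of Kit, was at 0.747 to 1.01 of the striatal level, and Calb1, which encodes calbindin, at 0.470 to 0.656. Vipr2, Cckar and Htr3b, the other receptors and the other serotonin receptor subunit, stayed at or below 1.61 CPM over every section, and Ocm, a parvalbumin relative, at or below 1.51 CPM. Of the 8 partners 4 were high enough to be tested, and Cckbr alone was called higher in cortical spots, beside 5.38% of all genes tested. Cckbr, below 10 CPM in striatum, reached the mean of 10 CPM only through its cortical level and could not have been called lower.

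Genes that all GABA neurons use went the other way from most members. Of 7 tested of a list of 8, 5 (Gad1, Gad2, Slc32a1, Dlx5 and Dlx6) were at least 2-fold lower in cortical spots in all 4 sets and 0 were higher. Over all genes tested 4% were lower and 5.38% higher. Dlx5 and Dlx6, at 6.01 to 13.1 CPM in cortical spots, were too low there to be called higher. Gad2, an enzyme that makes GABA, measured 744, 534, 634 and 537 CPM in striatum and 204, 142, 182 and 130 CPM in cortical spots. Slc32a1, the transporter that loads GABA into vesicles, was 3.16 to 3.78 times as high in striatum. Gad1 was 2.06 to 2.72 times as high there and was not called under TMM or RLE scaling. The list's median log2 difference was −1.69, beside −0.03 over all genes tested.

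Genes of fast-spiking parvalbumin cells were mixed. Of 11 tested of 14, 4 were called higher in cortical spots (Satb1, Kcnc2, Hapln4 and Vamp1) and 1 lower (Tac1), with a median of 0.67. The shares over all genes tested were 5.38% higher and 4% lower. Hapln4, which links the matrix around such cells, was 11.6 to 16.9 times as high in cortical spots, and Satb1, a chromatin organiser, 8.35 to 12.3 times. Kcnc1, a potassium channel of fast spiking, was 1.75 to 2.14 times as high and was not called. Several of these genes are also made by pyramidal cells, and Tac1, at 353 to 530 CPM in striatum, is also on the list of striatum markers. A list of 6 skeletal muscle genes, another tissue with Pvalb, summed to 5.48 to 8.32 CPM over the section, and its part in the Pvalb level was not tested.

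In the list for VIP and serotonin receptor cells, 5 of 11 were tested and 0 were called in either direction, with a median of 0.45. Over all genes tested 5.38% were called higher in cortical spots and 4% lower. Beside these shares the counts of called genes in lists this short do not set them apart. Cxcl14, a chemokine, was at 0.830 to 1.39 of the striatal level in cortical spots, Tac2, the neurokinin B precursor, at 1.52 to 4.41, and Adarb2 at 1.14 to 1.55. Prox1, a transcription factor of cells from the caudal ganglionic eminence, was at 0.612 to 0.875 and lower in cortical spots in 4 of 4 sets, the opposite of Vip and Htr3a. In the list for cholecystokinin and neurogliaform cells, 4 of 7 were tested. Npas1 was called higher in cortical spots and Cnr1, the cannabinoid receptor, lower, at 0.231 to 0.426 of the striatal level. Npas1, at 1.52 to 5.54 CPM in striatum, reached the mean of 10 CPM only through its cortical level. Its call followed from the filter. Reln, which encodes the secreted protein reelin, was 1.59 to 3.34 times as high in striatum and was not called. Lamp5, a marker of neurogliaform cells, was 1.84 to 1.97 times as high in cortical spots as in striatum and was called higher in cortical spots under TMM scaling only. Of 6 genes that process peptide precursors, Pcsk1 was called higher, at 3.43 to 6.20 times, and Cpe was nearly level at 1.03 to 1.10 times. Pcsk1, at 6.68 to 13.6 CPM in striatum, was too low there to be called lower in cortical spots.

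The likeness of the patterns was described over 65 sums of an area in a set, which share libraries, areas and depth and so are no independent samples. Vip and Cck were the most alike pair of members, with a Pearson r of 0.82 on the log2(CPM + 1) scale, followed by Kit and Htr3a at 0.74. Vip and Htr3a gave 0.60, Vip and Kit 0.53, and Calb2 gave r of −0.49 with Vip and −0.44 with Cck. Kit and Htr3a were each other's nearest gene among 11688 genes. These r reflect differences between areas. Over layer 2/3 spots thinned to 10000 counts, Vip and Cck gave r of 0.028, −0.084, 0.046 and −0.088 in sets 1 to 4. Kit and Htr3a gave 0.004, 0.200, 0.070 and 0.144 there. Over all cortical spots Vip and Cck gave 0.068 to 0.206.

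For Pvalb the nearest genes were Kcnab3 (0.81), Kcns3 (0.78) and Kcng4 (0.77), which encode potassium channel subunits, followed by Adra1d and Akain1 (both 0.73). For Vip they were Glt8d2, Rtn4rl2, Neurod2, Epop and Tshz3, with r of 0.87 to 0.90. For Cck they were Stx1a, Rtn4r, Hivep3, Lingo1 and Slc30a3, at 0.90 to 0.92. For Calb2 they were Pcbd1, Agt, Lhx9, Igsf1 and Tmie, at 0.86 to 0.88. Kit was next most like Arsb, Sema3a, Gramd4 and Ptgs1 (0.67 to 0.71), and Htr3a most like Csgalnact1, Rnf10, Fxyd5 and Evc2 after Kit (0.64 to 0.71).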

How the data were processed

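The deposited table holds raw counts, 1 row a gene and 1 column a spot; Space Ranger and Seurat are named in the submitters' processing notes, and versions, genome build, probe set and any spot filter are not given in the sources used here. Levels of different genes are not compared, since each gene has its own probes. There were 4744 barcodes, 1613 of them in all 4 sets, as barcodes mark grid positions. Members and lists were chosen with earlier results of these data known.

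One spot under 500 counts was left out. Spots were clustered (2000 variable genes without members, list genes and Celsr genes; counts scaled to 10000 per spot, log-transformed and scaled per gene within each set; 30 principal components; 15 neighbours; Leiden, leidenalg 0.10.2, resolution 0.8, seed 0), giving 29 clusters. A cluster took an area's name with at least 3 of its markers among 20 leading genes, and otherwise that of its leading genes; marker genes that are also list genes were not used. Cortical spots are the cortical areas with at least 2 layer markers leading, without claustrum and surface. The scaling within sets and the rule for unnamed cortical clusters were chosen after the table was seen. No doublet caller was run and no cell-type makeup was estimated.

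CPM are counts summed over spots per 1000000. Intervals are exact Poisson for levels and exact conditional binomial for ratios at 95% (scipy 1.17.1). A ratio is called where its interval leaves out 1. The 2-fold calls use log2(CPM + 1), which understates changes of low genes, and cover genes whose mean reaches 10 CPM. A gene with a mean below 10 CPM in cortical spots or in striatum could be called higher only in the other area. Alternative scalings (TMM, RLE) used edgeR 4.0.16. Genotype tests would need to know which set is which animal, and none was run. The named genes are the 6 members, the partner list, up to 4 genes of each other list by mean level, and the 5 genes most like each member in genes whose mean reaches 5 CPM. The called genes of a list were named after their values were seen. The 2-fold calls and the ratio intervals were tested on simulated Poisson counts. These counts held no variation between libraries beyond depth, so the test does not cover such variation. Clustering, area naming, thinning and likeness were not tested in this way.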

Additional observations from a re-analysis of the deposited data

How the results depend on the processing

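The direction between cortical spots and striatum was recomputed under clustering resolutions of 0.4 and 1.2, areas from a marker score, no centring, a minimum of 2000 counts, TMM and RLE scaling, and clustering without each set. The count of sets with cortical spots higher stayed the same or within 1.5 times in all 66 recomputed counts. For Kit the log2 ratio of set 2 turned to 0.056 at resolution 0.4 and that of set 3 to 0.037 without centring, and the cause was not tested; under these 2 settings and under TMM and RLE scaling Kit was lower beyond counting error in 3 sets, not 4. Of the recomputed log2 ratios 169 stayed within counting error, 69 moved beyond it with the same sign and 2 turned. The area with the highest level was the same in 2 sets for Vip as reported and in 4 sets at resolution 0.4 and under TMM scaling. Kit went from 4 sets to 2 at resolution 0.4, Htr3a from 4 to 3 at both resolutions and with the marker score, and Cck from 4 to 2 with the marker score. With the marker score Pvalb was highest in white matter in sets 1 and 4. In set 3 the highest area for Calb2 became lateral septum at resolution 0.4 and thalamus with the marker score. TMM scaling moved the median log2 difference of all genes from −0.04 to 0.10 in set 1, with 637 genes higher and 317 lower in place of 533 and 396; RLE, added after the data were seen, gave 581 and 350. Thinning to 10000 counts moved 20 shares of layer 2/3 spots and 23 of striatal spots, and left 4 and 1 within their intervals. Depth limits Vip and Htr3a in striatum most, at 9 to 50 counts a set. No paired analysis was possible because the genotype groups could not be tied to spot sets, and the edgeR and DESeq2 genotype fits were not run; cortex and striatum were compared within each set.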
